A study of Mus musculus with 13 samples.

Results

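The 40 genes described here code for nuclear receptors, their PGC-1 coactivators, and transcription factors that are known as regulators of liver or kidney. They were found by gene symbol in the deposited table of 22298 genes, each symbol once, by a rule that uses no measured value. RNA sequencing was done on liver and kidney of CD-1 (ICR) mice, an outbred stock, at 8 weeks of age. The vitrified groups came from oocytes that were vitrified by the Cryotop method and warmed before fertilisation. The method is a rapid cooling into a glass-like state on a thin carrier. The fresh groups came from oocytes that were not vitrified. In all groups, the oocytes were fertilised in vitro and the cleaved embryos were transferred into pseudopregnant females, so no group was naturally conceived. There were 13 libraries, from 3 vitrified livers, 3 fresh livers, 4 vitrified kidneys and 3 fresh kidneys. The labels call them biological replicates and give no sex, litter or parents, so the p-values measure only the spread between these samples.

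Nuclear receptors are transcription factors that small fat-soluble molecules can switch, among them steroid and thyroid hormones, retinoids, bile acids, fatty acids and foreign chemicals. Many of them bind DNA together with an RXR partner and recruit coactivators such as PGC-1 or corepressors. In liver they work beside the liver-enriched factors HNF4, FOXA, C/EBP, ONECUT and PROX1, which hold the hepatocyte programme. In kidney, PAX, LHX1, EMX and SALL1 factors build the nephron during development, and ERR receptors with PGC-1 drive the mitochondrial genes of tubule cells.

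Promoter sequences are shown for members of each organ pattern, since the organ is the axis along which the members differed. They are the 3 members with the largest called fold in each direction, among those with a single RefSeq start whose upstream window no GENCODE transcript runs into. Each line gives the 250 bases before the start, 5′ to 3′ on the strand of the gene, from RefSeq on GRCm38.p6. Capitals mark matches, on either strand, to any of 7 motifs. These were the FOXA form TGTTTAC, the FOXA form TGTTTGC, the C/EBP letters TTGCNNAA, the HNF4 direct repeat with a spacer of 1 base, the box named for its letters TATAAA, the box named for its letters CCAAT, and the GC box GGGCGG.
Onecut1, chr9:74861671-74861920, plus strand: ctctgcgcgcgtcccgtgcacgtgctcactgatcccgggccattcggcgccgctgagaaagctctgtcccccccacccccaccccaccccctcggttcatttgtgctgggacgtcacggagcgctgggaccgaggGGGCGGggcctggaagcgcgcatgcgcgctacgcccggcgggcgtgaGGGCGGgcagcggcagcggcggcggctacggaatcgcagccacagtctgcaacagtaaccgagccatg
Nr1i3, chr1:171213720-171213969, plus strand: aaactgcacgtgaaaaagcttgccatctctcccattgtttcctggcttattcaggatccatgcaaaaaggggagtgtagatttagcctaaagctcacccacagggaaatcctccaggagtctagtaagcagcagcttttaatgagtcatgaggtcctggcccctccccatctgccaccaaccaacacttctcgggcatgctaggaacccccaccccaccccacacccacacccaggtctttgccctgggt
Foxa3, chr7:19023540-19023789, minus strand: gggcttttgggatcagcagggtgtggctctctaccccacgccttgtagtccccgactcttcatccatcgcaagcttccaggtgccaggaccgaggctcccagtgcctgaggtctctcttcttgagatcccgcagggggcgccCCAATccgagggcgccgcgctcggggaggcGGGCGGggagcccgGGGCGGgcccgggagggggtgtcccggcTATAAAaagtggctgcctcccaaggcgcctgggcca
Pax8, chr2:24475600-24475849, minus strand: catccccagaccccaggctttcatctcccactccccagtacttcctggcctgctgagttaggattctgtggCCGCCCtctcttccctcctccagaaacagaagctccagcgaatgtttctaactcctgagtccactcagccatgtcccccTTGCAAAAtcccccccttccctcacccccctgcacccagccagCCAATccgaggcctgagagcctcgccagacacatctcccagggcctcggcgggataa
Ppargc1a, chr5:51567726-51567975, minus strand: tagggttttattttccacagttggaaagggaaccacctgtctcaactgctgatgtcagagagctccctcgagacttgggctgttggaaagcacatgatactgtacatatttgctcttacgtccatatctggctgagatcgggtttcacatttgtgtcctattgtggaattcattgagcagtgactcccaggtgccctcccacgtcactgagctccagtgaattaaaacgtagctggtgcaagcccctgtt
Esrra, chr19:6921809-6922058, minus strand: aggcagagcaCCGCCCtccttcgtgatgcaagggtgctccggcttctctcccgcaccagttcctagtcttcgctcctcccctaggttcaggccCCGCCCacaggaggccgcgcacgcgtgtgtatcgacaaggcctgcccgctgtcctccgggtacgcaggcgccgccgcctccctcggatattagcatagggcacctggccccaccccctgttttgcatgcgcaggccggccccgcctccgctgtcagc
The motifs shown in capitals were common ones, with GC boxes in Onecut1, Foxa3, Pax8 and Esrra, and a TATA box in Foxa3. GGGCGG stands in 32.7% of all 32851 promoters of the table, CCAAT in 33.9% and TATAAA in 12.4%. The C/EBP letters in the Pax8 window occur in 9.56% of all promoters. The rarer letters had no match in these 6 windows, at 3.17% and 4.30% of all promoters for the FOXA forms and 0.338% for the HNF4 repeat. The share of CpG pairs observed over expected was 0.968 in Onecut1 and 0.785 in Esrra, against 0.121 in Nr1i3, with a median of 0.3735 over all promoters. RefSeq promoters were at hand for 34 of the 40 members, 58 promoters in all. Among these, TGTTTAC occurred at Foxa1, Nr2f1 and Rxrb, and TGTTTGC at Nr1i2, Prox1 and Rarb.

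Libraries held between 16073251 and 19964914 estimated counts. Levels of 1 gene are given as normalised CPM, counts scaled to the library total and a TMM factor, and levels of different genes are set side by side only in the authors' FPKM, which is per length. A count of 0 allows up to 3 counts, which is 0.106 to 0.252 normalised CPM depending on the library. The labelled organs held their defining markers, with 18 of 18 hepatocyte markers called higher in liver, and 14 of 14 proximal tubule and 13 of 13 distal tubule and collecting duct markers called higher in kidney. A few libraries stood apart. Summed Y-linked transcripts were near 0 in fresh liver 3, vitrified kidney 4 and fresh kidney 3, at 0.109 to 1.13 normalised CPM, against 108 to 274 in the other libraries. Both of those kidneys also had the lowest proximal tubule marker sums, 13658 in vitrified kidney 4 and 19276 in fresh kidney 3, against 38047 to 41638 in the other kidneys. Their distal tubule and collecting duct sums were the highest, 7787 and 6673, against 4209 to 5344 in the other kidneys. So were their podocyte sums, 687 and 524, against 245 to 308. Hspa1a, an inducible heat shock gene, was highest in vitrified liver 3 (93.1 normalised CPM, against 3.40 to 5.84 in the other livers) and in vitrified kidney 3 (347, against 5.52 to 32.5 in the other kidneys). Vitrified liver 3 was the lowest liver for 18 of 33 members (54.5%), against 26.7% of all genes at a mean of at least 1 normalised CPM. Vitrified kidney 4 and fresh kidney 3 were together the highest pair of kidneys for 16.5% of genes at that mean in kidney. They were the lowest pair for 19.7%. Among the 31 members at that mean in kidney, the shares were 29.0% and 19.4%.

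The organ was by far the main axis along which the members varied. Of the 40, 16 were higher in liver, 14 were higher in kidney and 10 were not called by edgeR's quasi-likelihood test at a Benjamini-Hochberg adjusted p under 0.05 over 14441 genes. Over all genes tested, 62.7% were called, 30.3% higher in liver and 32.4% higher in kidney, so a called difference alone does not set the members apart. What differed among the members was size, with log2 folds of liver over kidney from 9.55 for Onecut1 to -8.78 for Lhx1. In 16 members every liver lay above every kidney, against 17.5% of genes, and in 13 every liver lay below every kidney, against 22.2% of genes. The 13 are the members called higher in kidney except Ppard, whose organs overlapped. Within vitrified libraries alone 16 members were called higher in liver and 14 higher in kidney, and within fresh libraries 14 and 12, with Nr1h2, Thrb, Ppard and Pparg no longer called. These are bulk samples, so fewer cells of a type and less RNA per cell cannot be told apart.

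The scaling bears on every organ value. TMM factors ran from 0.616 to 0.759 in livers and from 1.26 to 1.57 in kidneys. With TMM, the median log2 fold over all genes was 0.004. With library totals alone it was -0.99, and with FPKM plus a pseudocount of 1 it was -0.65. Under library totals the split of called genes moved to 1522 higher in liver and 10065 higher in kidney, against 4370 and 4681 with TMM. The members' split moved to 13 and 24, against 16 and 14. Nr3c1 and Thrb were then called in the opposite direction and Pparg was no longer called, while Hnf4a, Nr2f2, Nr2f6, Rxrb, Rara, Rarb, Ppargc1b and Sall1 were called higher in kidney, and the same held for both FPKM settings. The remaining 27 called members kept their direction and call under these settings. Changes below are relative to the TMM scale.

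**Figure D1:**
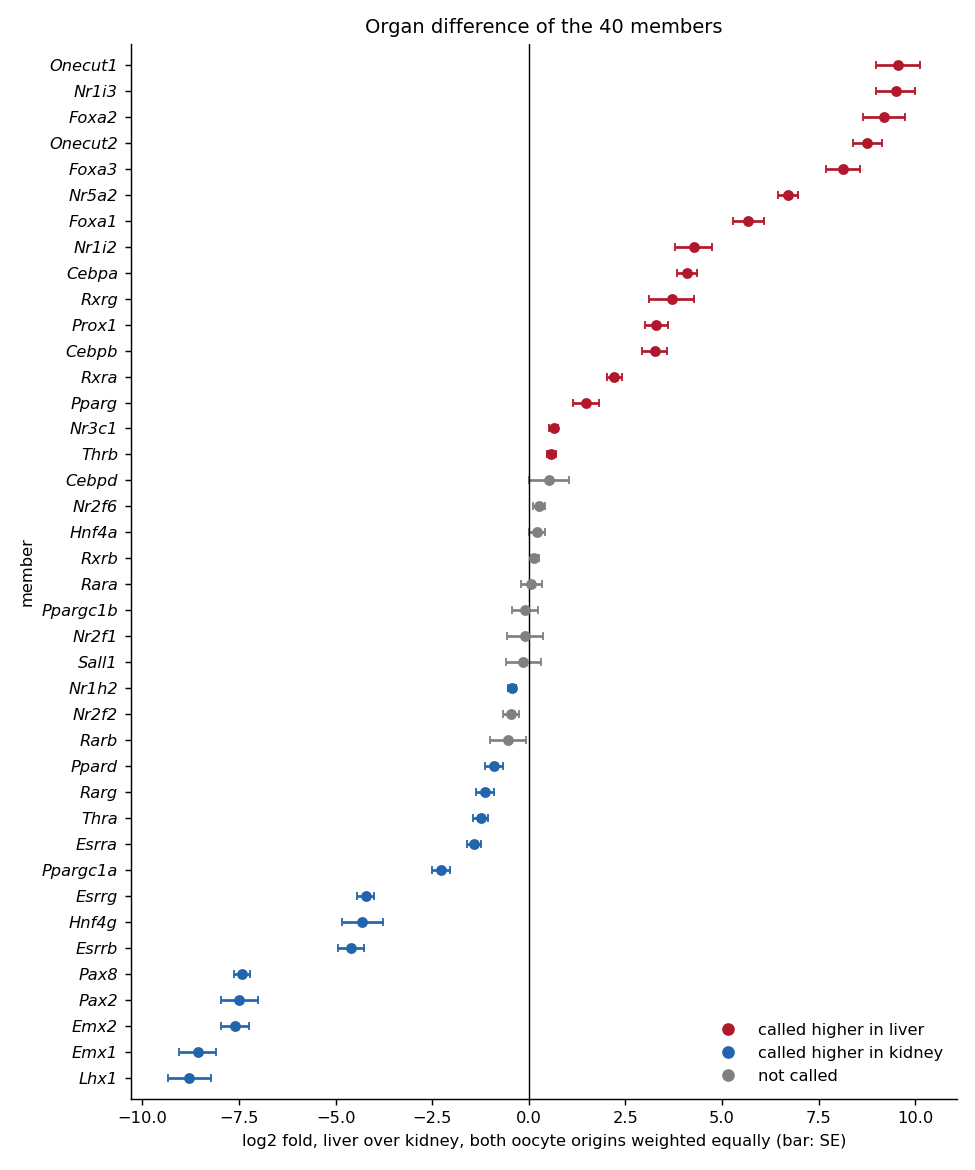
Log2 fold of liver over kidney (horizontal axis, bar: SE) for each of the 40 members, from the edgeR fit over 13 libraries with both oocyte origins weighted equally. Red points are the 16 members called higher in liver, blue points the 14 called higher in kidney, and grey points the 10 not called, which lie between -0.54 and 0.51.

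Among the 11 liver-enriched factors, 8 were higher in liver, Hnf4g was higher in kidney, and Hnf4a and Cebpd were not called. Onecut1 (HNF6), a homeodomain factor of hepatocyte and bile duct development, ranged from 40.4 to 209 normalised CPM in the 6 livers with a median of 115, against 0 to 0.272 with a median of 0.142 in the 7 kidneys. Its log2 fold was 9.55 ± 0.57 (SE, edgeR adjusted p = 1.3e-08), and no liver came near the kidney range. Onecut1 shares 52.3% of its 50-base words with the annotated gene Gm20649, which overlaps it on the same strand. Gm20649 is not among the genes of the deposited data, and the share of Onecut1 reads that this touches is not known. Onecut2, its paralog, ranged from 64.1 to 150 in livers, against 0.0928 to 0.532 in kidneys (8.76 ± 0.37, edgeR adjusted p = 3e-10). Both ONECUT genes were thus liver genes in every library.

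The FOXA factors, which open closed chromatin at liver genes, were near their detection limit in kidney. Foxa2 had 43.6, 25.5 and 17.96 normalised CPM in vitrified livers and 46.3, 27.9 and 23.3 in fresh livers, and had no count in 4 of 7 kidneys and at most 0.156 in the others. The 8 counts summed over kidneys stood against 2440 in livers (log2 fold 9.20 ± 0.54, edgeR adjusted p = 8.1e-09). Foxa3 ranged from 27.8 to 69.9 in livers, against 0 to 0.326 in kidneys (8.12 ± 0.44, edgeR adjusted p = 4.1e-09). Foxa1 ranged from 12.3 to 37.3 in livers, against 0.0362 to 1.01 in kidneys (5.68 ± 0.40, edgeR adjusted p = 3.8e-08), the smallest organ fold of the family. Per length, Foxa3 made up 50.5% of the family's FPKM in livers (range 36.8% to 62.8%), Foxa2 33.5% and Foxa1 16.0%. In kidneys the family's summed FPKM rested on few counts, and its shares are not given.

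HNF4 shows a paralog pair with different organ patterns. Hnf4a, a master regulator of hepatocytes that proximal tubule cells also express, ranged from 406 to 710 normalised CPM in livers with a median of 498, against 307 to 583 with a median of 483 in kidneys. Its log2 fold of 0.22 ± 0.21 was not called (95% interval -0.19 to 0.62). Its lowest kidneys, 307 in vitrified kidney 4 and 349 in fresh kidney 3, are those with the lowest proximal tubule marker sums, whose part in the result was not tested. Hnf4g, its less studied paralog, was at or below 1.08 in all 6 livers, against 2.26 to 6.92 in kidneys. The log2 fold of liver over kidney was -4.31 ± 0.53 (edgeR adjusted p = 9.6e-06). Even in kidneys Hnf4g was the minor paralog, at 1.91% of the pair's FPKM (range 0.796% to 2.85%), against 0.115% in livers.

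The C/EBP factors are leucine zipper proteins, of which C/EBPα maintains hepatocyte metabolism while C/EBPβ and C/EBPδ are known for acute-phase responses. Cebpa ranged from 151 to 250 normalised CPM in livers, against 7.80 to 19.2 in kidneys (log2 fold 4.10 ± 0.26, edgeR adjusted p = 1.4e-08). Cebpb ranged from 62.2 to 159 in livers, against 4.88 to 25.9 in kidneys (3.25 ± 0.33, edgeR adjusted p = 2.2e-06). Cebpd did not follow its paralogs, with 3.32 to 49.9 in livers against 3.40 to 15.7 in kidneys and a log2 fold of 0.51 ± 0.52 that was not called. Its highest value in each organ was in vitrified liver 3 and vitrified kidney 3, the libraries highest in Hspa1a. Without these and the libraries near 0 in Y-linked transcripts it was called higher in liver. Cebpb overlaps Tmem189 and Cebpd overlaps Spidr on the opposite strand, and without a stated strand setting their reads cannot be told apart. Tmem189 itself had a median of 8.26 in livers, against 191 in kidneys.

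Prox1, a homeodomain factor of hepatocytes and lymphatic endothelium, ranged from 53.5 to 171 normalised CPM in livers, against 4.36 to 18.5 in kidneys (log2 fold 3.30 ± 0.30, edgeR adjusted p = 5.1e-07). Of 24 listed targets of Hnf4a and the C/EBP factors, 22 were called higher in liver and 1 higher in kidney, with a median log2 fold of 9.81 beside 0.004 over all genes. Cyp8b1, a bile acid 12-hydroxylase gene (9.81 ± 0.35), and the clotting factor genes F7 (9.44 ± 0.38) and F12 (10.03 ± 0.48) were among them. Hnf4a itself, as above, was not called between the organs. The target list went the same way as the hepatocyte markers, of which 18 of 18 were called higher in liver. Its organ contrast therefore does not measure the activity of these factors apart from the hepatocyte contrast. Target lists, here and below, give transcript levels only, and the activity of the regulators was not tested. Of 22 other liver regulators, 15 were called higher in liver and 2 higher in kidney, led by Creb3l3 (9.79 ± 0.24), Hhex (6.32 ± 0.30) and Gata4 (7.62 ± 0.42). Under library totals the counts for the regulators were 11 and 4.

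Of the receptors Nr1i3, Nr1i2, Nr5a2 and Nr1h2, 3 were higher in liver and Nr1h2 was higher in kidney. Nr1i3 (CAR), a receptor for foreign chemicals, had 324, 293 and 72.9 normalised CPM in vitrified livers and 334, 122 and 344 in fresh livers. The 7 kidneys held between 0.109 and 0.745. The log2 fold of 9.49 ± 0.50 (edgeR adjusted p = 3.8e-09) was the second largest of the members. Nr1i3 overlaps Tomm40l on the opposite strand, which had a median of 172 in livers, against 20.6 in kidneys, so a part of either gene's reads may belong to the other. Nr1i2 (PXR), the other receptor of drug metabolism, ranged from 29.9 to 82.4 in livers, against 0.855 to 6.14 in kidneys (4.27 ± 0.48, edgeR adjusted p = 6.5e-06). Its kidney values were highest in fresh kidney 3 (6.14) and vitrified kidney 4 (4.56), the pair near 0 in Y-linked transcripts, and at most 2.06 in the others.

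CAR and PXR differed in their shares of the pair between the organs, although both were higher in liver. Nr1i3 held 84.8% of the pair's FPKM in livers (range 78.8% to 91.3%), against 17.1% in kidneys (range 1.75% to 38.3%). The kidney shares rest on few counts, 62 of Nr1i3 and 471 of Nr1i2 summed over kidneys. Of 18 tested targets of these receptors, 13 were called higher in liver and 1 higher in kidney, with a median log2 fold of 3.52. Cyp3a11 (10.21 ± 1.02), Cyp2c29 (10.06 ± 1.07) and the organic anion carrier gene Slco1a4 (5.27 ± 0.51) led them. Nr5a2 (LRH-1), which controls bile acid synthesis genes, ranged from 51.0 to 88.7 normalised CPM in livers, against 0.204 to 0.958 in kidneys (6.70 ± 0.27, edgeR adjusted p = 1.8e-10). Nr0b2 (SHP), a corepressor without a DNA-binding domain that restrains Nr5a2, was likewise higher in liver (4.19 ± 0.51, edgeR adjusted p = 1.2e-05). It stood in a list of 20 coregulators, of which 6 were called higher in liver and 5 higher in kidney, with 1 and 17 under library totals. Nr1h2 (LXRβ), a broadly expressed oxysterol receptor, went the other way by little, at 28.0 to 35.8 in livers against 38.3 to 49.6 in kidneys (-0.42 ± 0.10, edgeR adjusted p = 0.0026). Its organs did not overlap, but the call was lost within fresh libraries alone (edgeR adjusted p = 0.086).

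**Figure D2:**
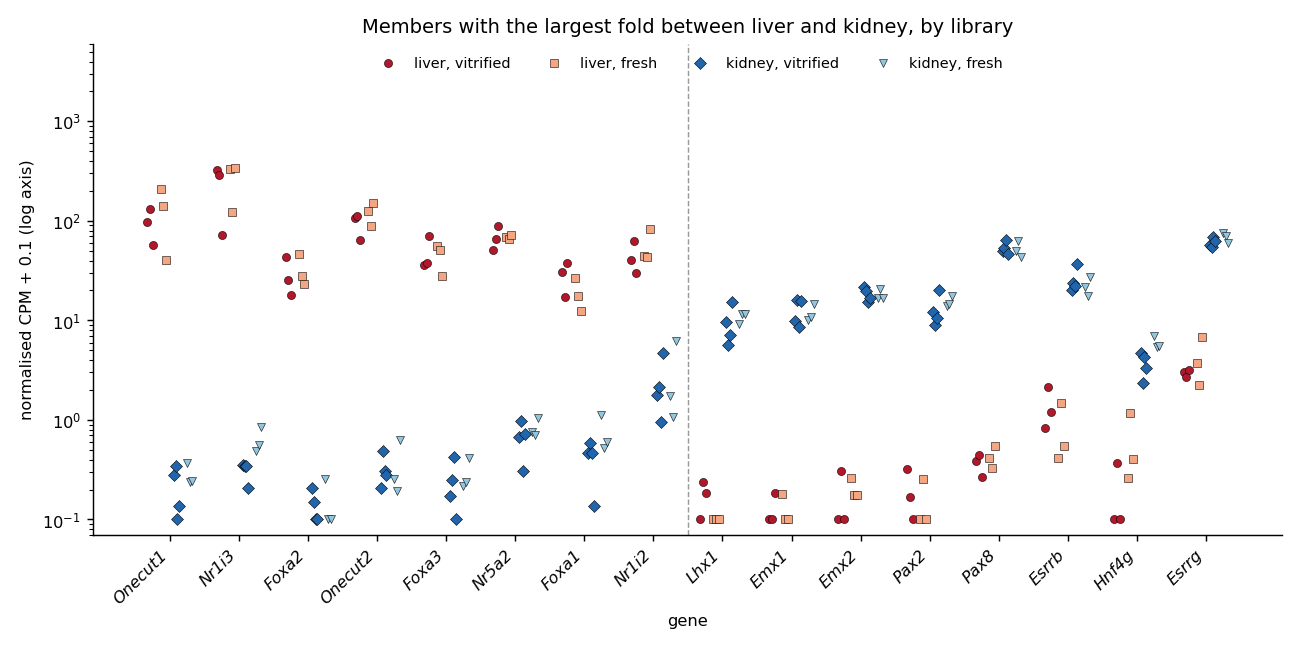
Normalised CPM plus 0.1 on a log axis in every library, for the 8 members with the largest called fold in each direction (liver left of the dashed line, kidney right of it). Red circles and orange squares are vitrified and fresh livers, blue diamonds and light blue triangles vitrified and fresh kidneys, and points at 0.1 are libraries with no count. Nr1i3 spans 72.9 to 344 in livers and 0.109 to 0.745 in kidneys, and Pax8 spans 0.168 to 0.453 in livers and 42.8 to 64.8 in kidneys.

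Among the receptors above, RXR receptors are the shared partners of CAR, PXR and LXRβ. Rxra ranged from 257 to 473 normalised CPM in livers with a median of 344, against 51.9 to 91.0 with a median of 80.8 in kidneys (log2 fold 2.22 ± 0.19, edgeR adjusted p = 2.4e-07). Rxrb overlapped between the organs, at 16.8 to 25.8 in livers against 17.7 to 26.1 in kidneys, and was not called (0.14 ± 0.12, 95% interval -0.09 to 0.38). Rxrg ranged from 2.35 to 8.16 in livers, against 0.0981 to 1.303 in kidneys (3.70 ± 0.59, edgeR adjusted p = 0.00012), and its highest kidneys were again vitrified kidney 4 (1.303) and fresh kidney 3 (0.923). Rxra therefore made up 84.4% of RXR FPKM in livers (range 80.3% to 86.8%), against 62.6% in kidneys (range 53.8% to 71.2%). Rxrb made up 11.1% in livers, against 36.0% in kidneys, without overlap.

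Of the retinoic acid receptors, Rarg, the form of epithelia, was higher in kidney and the other members were not called. Rarg ranged from 3.11 to 4.63 normalised CPM in livers, against 5.72 to 15.3 in kidneys (log2 fold -1.14 ± 0.23, edgeR adjusted p = 0.00066). Rara ranged from 5.96 to 17.3 in livers, against 6.85 to 17.6 in kidneys (0.06 ± 0.27). Rarb ranged from 0.923 to 6.10 in livers, against 1.18 to 8.83 in kidneys (-0.54 ± 0.47). Rarb overlaps Top2b, which was at a median of 91.9 in livers against 65.9 in kidneys, on the opposite strand. Of 13 tested retinoid genes, 7 were called higher in liver and 3 higher in kidney, with 6 and 5 under library totals. Aldh1a1, an enzyme that makes retinoic acid (7.79 ± 0.35), and Cyp26a1, an enzyme that breaks it down (6.49 ± 0.31), were higher in liver, while Aldh1a3 was higher in kidney (-4.23 ± 0.48).

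The thyroid hormone receptors divided between the organs. Thrb, the β receptor through which the hormone acts in liver, had 40.8, 56.5 and 49.2 normalised CPM in vitrified livers and 54.2, 42.5 and 51.8 in fresh livers. In kidneys it had 28.6, 27.9, 33.7 and 27.5 in vitrified and 38.5, 39.2 and 32.7 in fresh samples. Every liver lay above every kidney (log2 fold 0.58 ± 0.12, edgeR adjusted p = 0.00073), a direction that was opposite under library totals. Thra ranged from 6.27 to 17.0 in livers, against 21.8 to 29.1 in kidneys (-1.24 ± 0.20, edgeR adjusted p = 0.00011), without overlap. Thra overlaps Nr1d1, a clock gene, on the opposite strand, with a median of 102 in livers and 52.3 in kidneys. The share of Thrb in the summed FPKM of the pair does not depend on the scaling. It was 68.7% in livers (range 51.4% to 79.7%), against 37.3% in kidneys (range 30.6% to 44.6%), so no library crossed over. Of 14 tested thyroid hormone responsive genes, 5 were called higher in liver and 5 higher in kidney, with 4 and 9 under library totals. Thrsp (8.32 ± 0.47), the lipogenic spot 14 gene, and Dio1 (2.81 ± 0.49), the deiodinase that activates the hormone, were higher in liver.

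**Figure D3:**
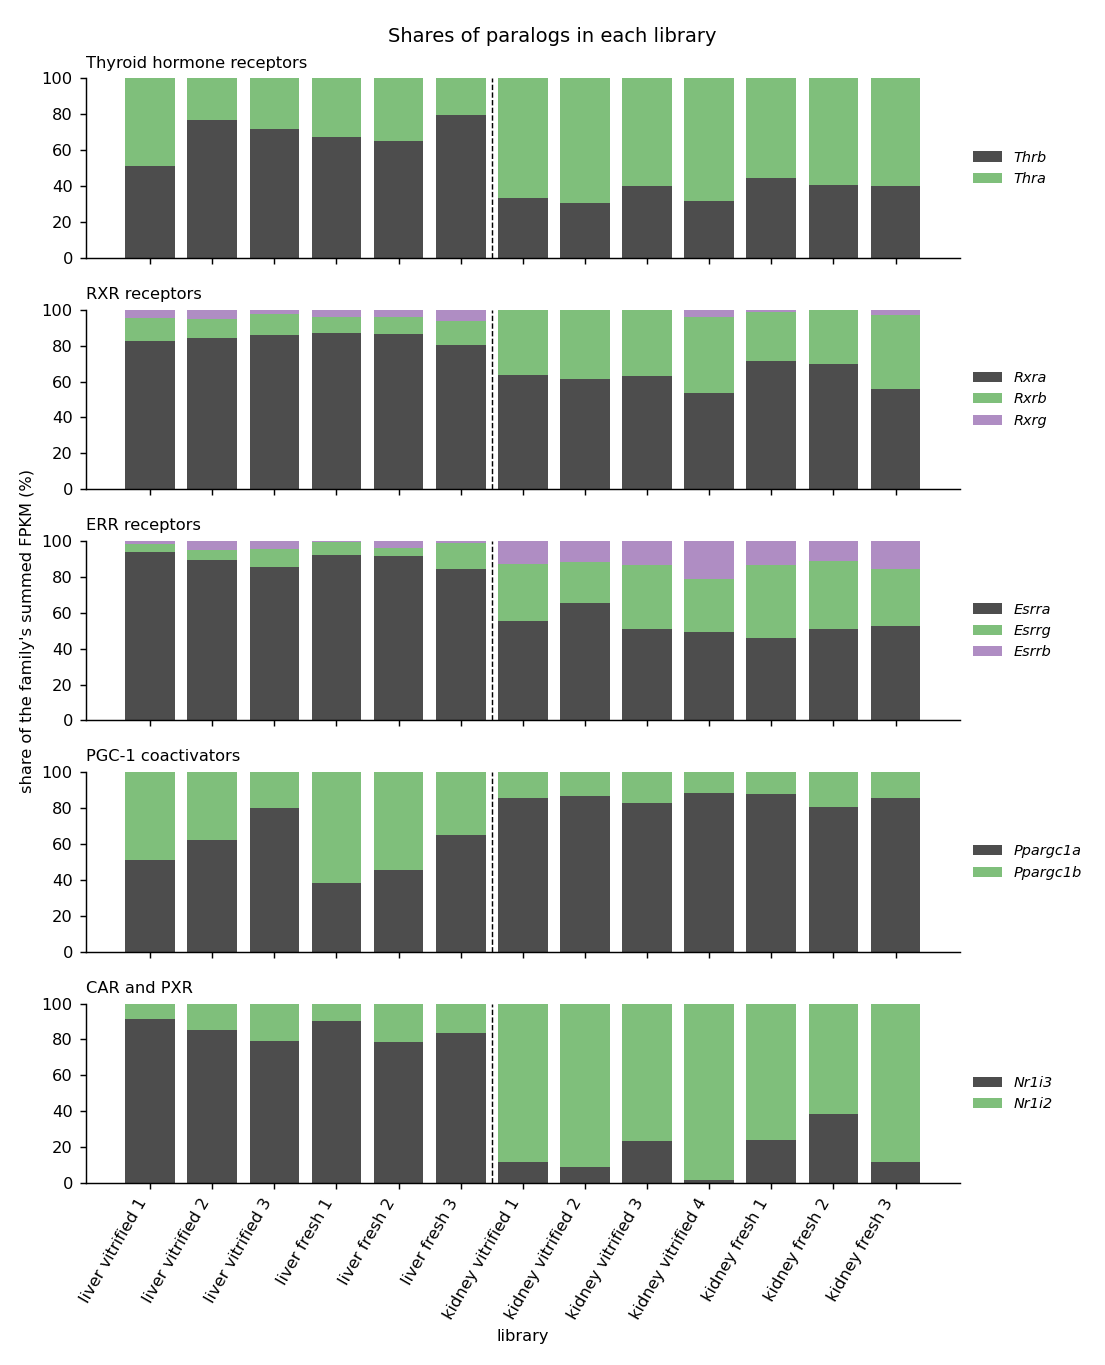
Share of each paralog in the summed FPKM of its family (vertical axis, percent) in each of the 13 libraries, livers left of the dashed line and kidneys right of it. Thrb holds 51.4% to 79.7% of its pair in livers and 30.6% to 44.6% in kidneys, Esrra holds 84.2% to 94.1% of its family in livers and 45.8% to 65.5% in kidneys, and Nr1i3 78.8% to 91.3% in livers and 1.75% to 38.3% in kidneys. The kidney shares of Nr1i3 and Nr1i2 rest on few counts.

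Nr3c1, the glucocorticoid receptor, ranged from 133 to 175 normalised CPM in livers, against 76.2 to 114 in kidneys (log2 fold 0.64 ± 0.12, edgeR adjusted p = 0.00036). The groups did not overlap, but under library totals and FPKM it was called higher in kidney. Of 20 glucocorticoid responsive genes, 10 were called higher in liver and 1 higher in kidney, with 6 and 6 under library totals. Tat, a tyrosine-degrading enzyme (10.46 ± 0.79), and the metallothionein Mt1 (3.60 ± 0.60) were among them.

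Both PPAR members were lowly expressed. Pparg, best known from fat cells, ranged from 3.94 to 10.2 normalised CPM in livers, against 0.687 to 3.33 in kidneys (log2 fold 1.48 ± 0.34, edgeR adjusted p = 0.002). This call was absent under library totals, under both FPKM settings and within fresh libraries. Ppard, the broadly expressed fatty acid sensor, ranged from 3.27 to 5.91 in livers, against 4.66 to 11.1 in kidneys (-0.90 ± 0.24, edgeR adjusted p = 0.005). The call was lost within fresh libraries and when the libraries highest in Hspa1a and those near 0 in Y-linked transcripts were left out together. Of 21 tested PPAR targets, 10 were called higher in liver and 6 higher in kidney, with 6 and 9 under library totals. Fabp1, a fatty acid binding protein gene, was higher in liver (10.13 ± 1.07), and Mogat1 was higher in kidney (-6.86 ± 0.76).

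None of the 3 COUP-TF genes, orphan receptors that often oppose other receptors, was called between organs. Nr2f1 was near its detection limit in both, at 0.336 to 0.883 normalised CPM in livers against 0.122 to 1.12 in kidneys. Nr2f2, the form of veins and stroma, ranged from 16.0 to 48.3 in livers, against 39.1 to 48.7 in kidneys (log2 fold -0.46 ± 0.21, edgeR adjusted p = 0.071), with vitrified liver 3 the lowest. It was called in 9 of 28 alternatives. Nr2f6 ranged from 44.6 to 54.1 in livers, against 29.2 to 59.7 in kidneys (0.26 ± 0.15, 95% interval -0.04 to 0.56). It overlaps Ocel1, at a median of 21.0 in livers against 17.7 in kidneys, on the opposite strand.

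PGC-1 coactivators and ERR receptors, partners in the control of mitochondrial genes, were kidney genes except Ppargc1b. Ppargc1a (PGC-1α) had 9.89, 14.7 and 5.96 normalised CPM in vitrified livers and 6.87, 12.1 and 12.997 in fresh livers. The 7 kidneys ranged from 37.6 to 61.7 with a median of 49.3, all above every liver (log2 fold -2.27 ± 0.23, edgeR adjusted p = 1.2e-06). Ppargc1b (PGC-1β) ranged from 0.839 to 9.57 in livers, against 3.43 to 7.56 in kidneys, and was not called (-0.09 ± 0.33). The share of Ppargc1a in the FPKM of the pair was 57.2% in livers (range 38.2% to 80.3%), against 85.4% in kidneys (range 80.9% to 88.4%). The livers thus overlapped no kidney but spread widely, with the top share in vitrified liver 3, where Ppargc1b was lowest.

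Esrra (ERRα) ranged from 10.7 to 23.8 normalised CPM in livers, against 39.7 to 68.1 in kidneys (log2 fold -1.41 ± 0.18, edgeR adjusted p = 1.3e-05). Esrrg (ERRγ) ranged from 2.16 to 6.73 in livers, against 54.7 to 76.0 in kidneys (-4.22 ± 0.23, edgeR adjusted p = 2.5e-09). Esrrb (ERRβ), known from stem cells, ranged from 0.320 to 2.04 in livers, against 17.6 to 36.7 in kidneys (-4.61 ± 0.34, edgeR adjusted p = 5.2e-08). All 3 were without overlap, and the fold of Esrra was the smallest. Esrra overlaps Trmt112 on the opposite strand, which was slightly higher in livers (median 24.7, against 18.6 in kidneys). Per length, Esrra made up 89.4% of ERR FPKM in livers, against 52.9% in kidneys, where Esrrg held 33.0% and Esrrb 14.1%. Of 20 PGC-1 and ERR targets, 4 were called higher in liver and 11 higher in kidney, with 0 and 18 under library totals. Slc25a4, a mitochondrial ADP/ATP carrier gene (-4.37 ± 0.22), and Ckmt1, the mitochondrial creatine kinase gene (-8.27 ± 0.46), were higher in kidney.

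Of the 6 kidney developmental factors, 5 were higher in kidney by log2 folds beyond 7 and Sall1 was not called. Pax8, which sets up the nephron lineage with Pax2, ranged from 0.168 to 0.453 normalised CPM in livers, against 42.8 to 64.8 in kidneys (-7.42 ± 0.21, edgeR adjusted p = 1.6e-11), the smallest p of all members. Pax2 had no count in 3 of 6 livers and at most 0.218 in the others, against 8.82 to 20.0 in kidneys (-7.49 ± 0.47, edgeR adjusted p = 1.2e-08). Per length in kidneys, Pax8 had a median of 29.2 FPKM and Pax2 of 5.29.

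Lhx1, a LIM homeodomain factor of the nephron, and Emx1 were all but absent from liver. Lhx1 had 3 counts in all 6 livers together. In kidneys it had 9.49, 5.54, 6.96 and 15.2 normalised CPM in vitrified and 9.02, 11.5 and 11.6 in fresh samples. From summed counts, the ratio of kidney over liver was 266 (exact 95% interval 90.8 to 1290.05, counting error only). Emx1 had 2 counts in all livers, against 8.47 to 15.8 in kidneys, a ratio of kidney over liver of 479 (132 to 3956). The fitted log2 folds were -8.78 ± 0.55 for Lhx1 and -8.57 ± 0.47 for Emx1 (edgeR adjusted p = 6.6e-08 and 3.1e-09). Emx2, required for the ureteric bud, ranged from 0 to 0.204 in livers, against 15.2 to 21.5 in kidneys (-7.59 ± 0.36, edgeR adjusted p = 7.9e-10). Its kidney values were among the steadiest of the members, with a coefficient of variation of 12.9%. Of 20 tested other kidney developmental regulators, 19 were called higher in kidney and 0 higher in liver, among them Pou3f3 (-8.11 ± 0.29), Tfap2b (-8.75 ± 0.40) and Irx3 (-5.56 ± 0.32).

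Sall1, a zinc finger factor of nephron progenitors, was not called between the organs. It had 20.4, 23.4 and 84.9 normalised CPM in vitrified livers and 24.8, 14.5 and 73.3 in fresh livers. In kidneys it had 28.4, 27.7, 53.4 and 70.6 in vitrified and 35.8, 30.7 and 63.9 in fresh samples. In both organs the highest libraries were those near 0 in Y-linked transcripts or highest in Hspa1a. The organ log2 fold was -0.14 ± 0.45 and its 95% interval ran from -1.02 to 0.74. Without those libraries Sall1 was called higher in kidney, and the cause of this shift was not tested.

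Ranked by median FPKM, the leading members in livers were Nr1i3 (111), Hnf4a (84.3), Cebpa (59.2), Rxra (52.5) and Cebpb (43.7). Nr1i3 ranged from 27.5 to 114 FPKM and Hnf4a from 64.0 to 112, so their order was not fixed in every library. In kidneys Hnf4a led with 146 FPKM (range 110 to 169), clear of Nr1h2 (32.3), Esrra (29.7), Pax8 (29.2) and Nr2f6 (26.8). Nr1h2 (30.2 to 34.3), Esrra (23.4 to 39.3) and Pax8 (26.2 to 34.6) overlapped in range, so their order is not settled.

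Oocyte vitrification was compared within each organ to ask whether offspring from vitrified eggs differ from those from fresh eggs. In liver, 33 members passed the filter on low counts, and 7 did not (Hnf4g, Nr2f1, Pax2, Pax8, Lhx1, Emx1 and Emx2). None of the 33 was called, as for all 12335 genes tested (0% called at an edgeR adjusted p under 0.05). At an unadjusted p under 0.05, 2 members and 3.16% of genes passed, and DESeq2 called 10 genes, none of them a member. Members had a median log2 fold of vitrified over fresh of -0.09, beside 0.009 over all genes. Of the 33, 12 were above and 21 below 0, where 51.2% of all genes tested were above 0. Vitrified liver 3 was the lowest liver for 18 of 33 members, and its part in these signs was not tested. For 32 of the 33 the fold lay within 1 either way.

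Cebpb and Cebpd had the smallest p in liver. Cebpb had 110, 90.4 and 159 normalised CPM in vitrified livers, against 91.8, 64.8 and 62.2 in fresh livers (log2 fold 0.73 ± 0.27, edgeR adjusted p = 0.99). Cebpd had 6.91, 9.92 and 49.9 in vitrified livers, against 7.03, 3.32 and 4.23 in fresh livers (2.21 ± 0.83, edgeR adjusted p = 0.99). For both genes vitrified liver 3 was the highest and the groups overlapped. Without that library the folds were 0.47 ± 0.23 and 0.81 ± 0.38. The same library had a summed level of 1059 normalised CPM over 14 immediate early genes, against 135 to 227 in the other livers, and 6793 over 10 heat shock genes, against 1460 to 2243. The part of these in the Cebpb and Cebpd values was not tested.

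Prox1 had 110, 130 and 53.5 normalised CPM in vitrified livers, against 145, 135 and 171 in fresh livers (log2 fold -0.60 ± 0.31, edgeR adjusted p = 0.99). It was the single member without overlap between the liver groups, where 8.44% of genes had none. Foxa1 had 30.3, 17.0 and 37.3 in vitrified livers, against 26.7, 17.7 and 12.3 in fresh livers (0.59 ± 0.37, edgeR adjusted p = 0.99), with overlap. Without vitrified liver 3 these folds were -0.31 ± 0.21 and 0.34 ± 0.38. Hnf4a had 458, 474 and 636 in vitrified livers, against 710, 522 and 406 in fresh livers (-0.04 ± 0.27, 95% interval -0.57 to 0.48). The lists of target genes had 0 called in liver. Over all genes tested, 51.2% were above 0. At an unadjusted p under 0.05, 2 of 19 tested PPAR targets and 0 of 20 glucocorticoid responsive genes passed. The median log2 fold was -0.46 for PPAR targets (18 of 19 below 0) and 0.50 for glucocorticoid responsive genes (15 of 20 above 0). Their summed levels overlapped between the groups, at 8570 to 12133 in vitrified livers against 9175 to 19389 in fresh livers for PPAR targets, and at 5133 to 9262 in vitrified livers against 3585 to 7742 in fresh livers for glucocorticoid responsive genes. The top PPAR target sum was in fresh liver 3, the liver near 0 in Y-linked transcripts, and the top glucocorticoid sum in vitrified liver 3, the liver highest in Hspa1a. The part of these libraries in the list values was not tested.

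**Figure D4:**
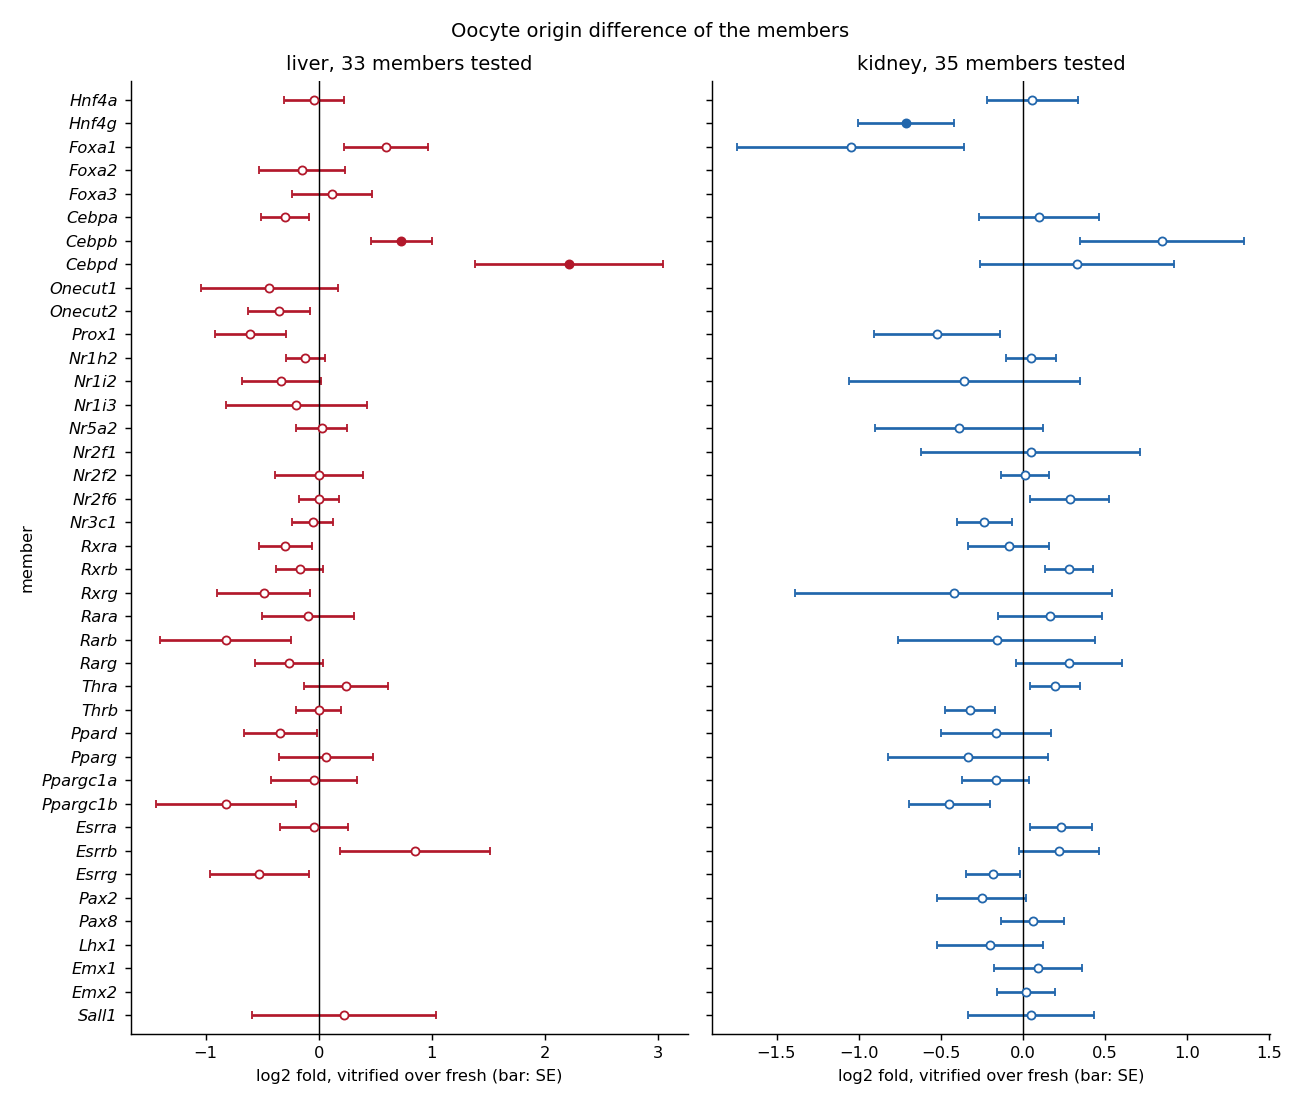
Log2 fold of vitrified over fresh (horizontal axis, bar: SE) of every member that passed the filter on low counts, in liver (left) and kidney (right), in separate edgeR fits. Filled points have an unadjusted p under 0.05 (Cebpb and Cebpd in liver, Hnf4g in kidney), no member was called, and the horizontal scales of the panels differ.

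In kidney, 35 members passed the filter, and Foxa2, Foxa3, Onecut1, Onecut2 and Nr1i3 did not. None of the 35 was called, again as for all 14018 genes tested (0% called at an edgeR adjusted p under 0.05). At an unadjusted p under 0.05, 1 member and 2.05% of genes passed, and DESeq2 called 10 genes, none of them a member. The members' median log2 fold was 0.015, beside 0.023 over all genes. Of the 35, 18 were above and 17 below 0, where 53.7% of all genes tested were above 0. For 34 of the 35 the fold lay within 1 either way, the exception being Foxa1 at -1.05 ± 0.69, which rests on 0.0362 to 1.01 normalised CPM. Among these 35, groups did not overlap for Hnf4g and Nr3c1, lower in vitrified kidneys, and for Rxrb, higher there, where 3.62% of genes tested had no overlap.

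Hnf4g had 4.60, 2.26, 4.24 and 3.26 normalised CPM in vitrified kidneys, against 6.92, 5.29 and 5.43 in fresh kidneys (log2 fold -0.71 ± 0.29, edgeR adjusted p = 0.999). Thrb had 28.6, 27.9, 33.7 and 27.5 in vitrified kidneys, against 38.5, 39.2 and 32.7 in fresh kidneys (-0.32 ± 0.15, edgeR adjusted p = 0.999), with vitrified kidney 3 just above fresh kidney 3. Rxrb had 23.0, 26.1, 20.9 and 21.7 in vitrified kidneys, against 17.7, 19.8 and 19.1 in fresh kidneys (0.28 ± 0.15, edgeR adjusted p = 0.999). All vitrified kidneys lay above all fresh kidneys for Rxrb, by a small margin. Ppargc1b had 5.47, 3.43, 4.64 and 5.03 in vitrified kidneys, against 5.29, 7.56 and 6.17 in fresh kidneys (-0.45 ± 0.24, edgeR adjusted p = 0.999), with overlap. Nr3c1 had 101, 95.4, 76.2 and 97.9 in vitrified kidneys, against 114, 108 and 104 in fresh kidneys (-0.24 ± 0.17). Every target list had 0 called in kidney, where 53.7% of all genes tested were above 0. Targets of Hnf4a and the C/EBP factors had a median log2 fold of -0.69, with 15 of 19 below 0, and PGC-1 and ERR targets one of 0.03, with 11 of 20 above 0. Of the 24 listed Hnf4a and C/EBP targets, 7 had no count in vitrified kidney 3 and 6 in vitrified kidney 4. The number was 0 in vitrified kidneys 1 and 2, and 0 to 1 in each fresh kidney. Their sums overlapped, at 1474 to 3511 normalised CPM in vitrified kidneys against 2263 to 3022 in fresh kidneys. The median log2 fold was -0.32 for PPAR targets (15 of 18 below 0) and 0.36 for glucocorticoid responsive genes (15 of 20 above 0). At an unadjusted p under 0.05, 0 of these 18 and 1 of these 20 passed. Sums of PPAR targets overlapped, at 1431 to 3164 in vitrified kidneys against 2559.9 to 4272 in fresh kidneys. So did those of glucocorticoid responsive genes, at 2303 to 4453 in vitrified kidneys against 2765 to 3098 in fresh kidneys, with the top in vitrified kidney 3, the kidney highest in Hspa1a. Hepatocyte markers, which are low in kidneys, had a median of -1.31, and their sums overlapped at 1170 to 3678 normalised CPM in vitrified kidneys against 1415 to 3433 in fresh kidneys.

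**Figure D5:**
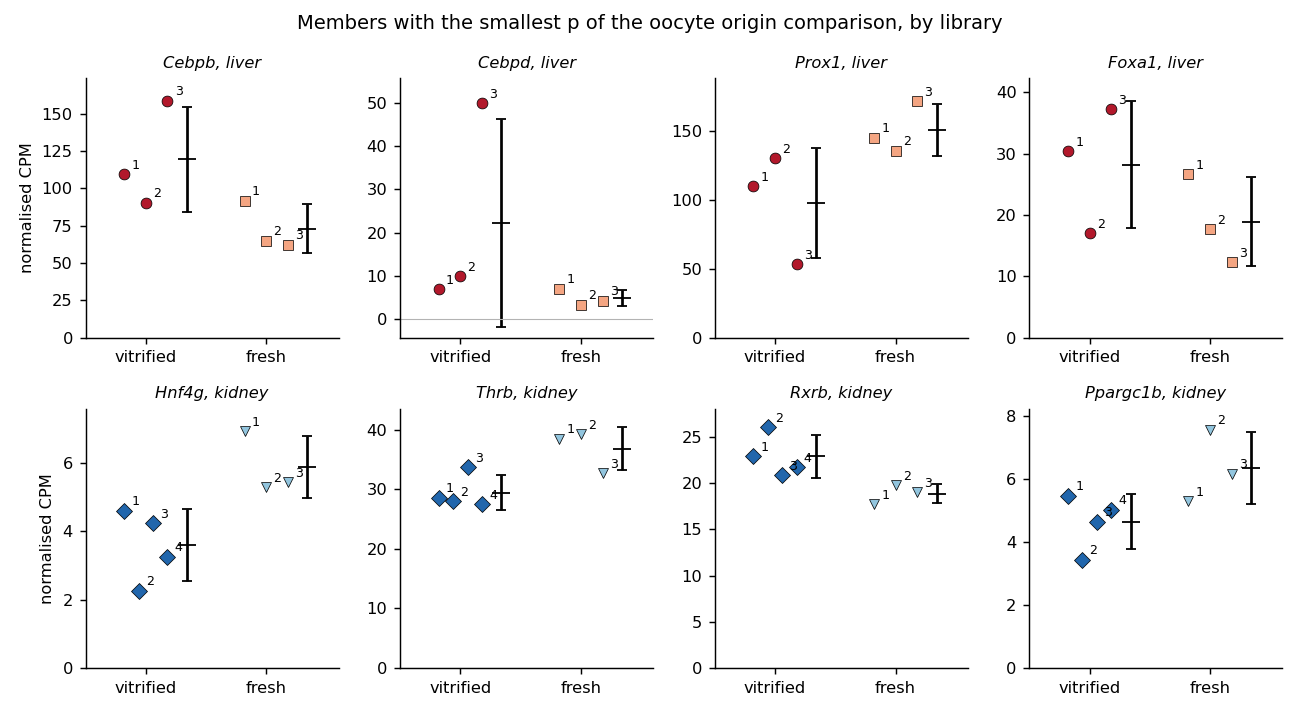
Normalised CPM (vertical axis) of the 4 members with the smallest p of the oocyte origin comparison in liver (top) and kidney (bottom), vitrified left and fresh right. Each numbered point is a library, and the bar beside each group is the mean ± SD, which for Cebpd in vitrified livers reaches below 0. The top Cebpb and Cebpd values, 159 and 49.9, are both vitrified liver 3, and all vitrified kidneys lie below all fresh kidneys for Hnf4g.

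The effect of oocyte origin was not called as different between the organs for any member or gene (0% of 14441 genes at an edgeR adjusted p under 0.05). At an unadjusted p under 0.05, 1 member and 1.9% of genes passed, and DESeq2 called 0 genes. Foxa1 was that member, and its liver minus kidney difference of log2 folds was 1.64 ± 0.73 (edgeR adjusted p = 0.9999), with kidney values near the detection limit. Lhx1 (3.86 ± 1.79) was next by p, but its value depends on the prior count, since fresh livers had no count of it. Rxrb (-0.47 ± 0.24) and then Cebpd (1.86 ± 1.04) came after it, with Cebpd at 0.46 ± 0.84 without vitrified liver 3. Across origins, 36 of 40 members had the same sign of organ fold, and the folds of vitrified and fresh libraries differed by a median of 0.29 on the log2 scale.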

How the data were processed

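RNA was sequenced from 13 libraries. The authors deposited 1 table with estimated counts and FPKM (fragments per length and depth) per gene and library. Bowtie2 2.2.8, HISAT2 2.4, StringTie 1.3.1, DESeq2 and GRCm39 are named, per the submitters' processing notes; which tool did what, with which settings, and whether strand was used in counting is not given in the sources used here. Estimated counts, of which 7.63% to 9.14% per library were not whole, were rounded. edgeR 4.0.16 (R 4.3.3) was used with TMM factors, its default filter on low counts and robust quasi-likelihood tests, with separate fits per organ for oocyte origin and 1 fit of all libraries for the organ and for the difference of origin effects. Benjamini-Hochberg adjustment ran over all genes tested. Standard errors were derived from the test statistic. Alternatives used DESeq2 1.42.0, limma 3.58.1 on voom values or on log2(FPKM + 1) and log2(FPKM + 0.1), other scalings and filters, left-out libraries and a replicate block. The procedure was run on simulated counts with known folds, and the outcome, including how often small folds were found, is not given here. Every pair of libraries of a group differed by more than counting noise. The 95% intervals of log2 folds are 1.96 SE either way and include the spread between samples, while the ratio intervals from summed counts and the floors cover counting error only.

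The rule for the members uses no measured value, but the members and gene lists were chosen with earlier results of these data known. Named in full were the 8 members with the largest called organ fold per direction, the 4 with the smallest p per origin comparison and for the difference between organs, whole paralog families, and up to 3 genes per list. Promoters came from RefSeq tables on GRCm38.p6, another build than the counts, and only as sequence. Promoters of Hnf4g, Cebpd, Onecut2, Nr3c1, Thra and Ppargc1b were not used here.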

Additional observations from a re-analysis of the deposited data

Results flagged for a closer look

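In vitrified kidneys, the single group of 4 libraries, 40 members were examined for a library far from the others, and 3 had one by Dixon's criterion, which chance meets in about 1 of 20 groups. Nr1i3 was low in vitrified kidney 4, at 0.109 normalised CPM, near the detection limit, against 0.244 to 0.253 in the other vitrified kidneys. Rxrg was high in vitrified kidney 4, at 1.303 normalised CPM, against 0.0981 to 0.122 in the other vitrified kidneys. Vitrified kidney 4 is near 0 in Y-linked transcripts and has the lowest proximal tubule marker sum of the kidneys. The part of either in the Nr1i3 and Rxrg values was not tested. Esrra was high in vitrified kidney 2, at 68.1 normalised CPM, against 45.7 to 48.3 in the other vitrified kidneys.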

How the results depend on the processing

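Genes called for oocyte origin in liver numbered 0, with 10 under DESeq2 and 0 to 1 when each library was left out in turn (1 without fresh liver 1). In kidney they numbered 0, with 10 under DESeq2, 3 under limma-voom, 2 under edgeR's newer quasi-likelihood method, 2 with no filter, 2 with a stricter filter, 3 with log2(FPKM + 0.1), and 0 to 3 when each library was left out (3 without fresh kidney 1). No member was among them. Members higher in kidney numbered 14, and 24 under library totals and under both FPKM settings. Members higher in liver numbered 13 to 17 over all alternatives, and genes called between organs 6687 to 11589. The difference of origin effects between organs had 0 called in all 25 alternatives. The cause of these shifts was not tested. With the replicate number as a block, 0 genes were called in liver, 0 in kidney, 0 for the difference of effects and 9089 between organs. The block left the 30 called members called and added Nr2f2. Equal numbers are not said to mark the same mouse. Deviations of same-numbered livers and kidneys correlated at 0.19 to 0.21 in fresh samples, where each library correlated best with its own number, and at 0.04 to 0.35 in vitrified samples, where not every library did. Fresh liver 3 and fresh kidney 3 were both near 0 in Y-linked transcripts, and vitrified liver 3 and vitrified kidney 3 were both highest in Hspa1a. These are hints of pairing from the data, which the main fits do not use. If equal numbers mark the same mouse, those fits treat its organs as independent. Same-numbered vitrified and fresh libraries of an organ correlated at -0.45 to 0.39. Low counts limit Lhx1, Emx1, Foxa2 and Nr2f1. The libraries highest in Hspa1a and those near 0 in Y-linked transcripts lie unevenly among groups of 3 or 4, which limits the precision of origin effects.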
